A study of Mus musculus with 18 samples.

Results

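Endothelial cells of the lactating mouse mammary gland were described in single-cell RNA sequencing data from glands taken at day 10 of lactation from FVB/NJ mice. The members were chosen by a rule on UMIs (unique molecular identifiers, which count captured RNA molecules). A cell needed 500 or more detected genes, under 20% mitochondrial UMIs, at least 3 UMIs of Pecam1, Cdh5, Gpihbp1 and Emcn together, no Ptprc UMI, and under 10 UMIs of Col1a1 and Col3a1. In all, 1250 members were found among 12092 cells that passed the gene and mitochondrial limits in the lactation libraries F11 and D6. F11 held 320 members among 5342 such cells and D6 held 930 among 6750. The same rule found 233 cells in the other 16 libraries of the series, which spans embryo to post-involution in 3 strains.

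The study profiled sorted mammary cells with the 10x Genomics Chromium system, and the labels describe the cell population as epithelium. Each library pooled glands of several mice, and its labels do not tie cells to animals. The FVB/NJ libraries used for comparison were A10 from adult virgin mice of 10 weeks, B4 from mice at day 18.5 of pregnancy, and 1 post-involution library labelled 3 weeks post birth, a time that the study's text counts from weaning. The day of lactation is that of the labels and methods, and other places in the study's text give other times. All 5 libraries came from FVB/NJ mice, with no transgene or treatment in the labels. The sort left out cells stained for CD31 (the Pecam1 protein), CD45 (the Ptprc protein) and Ter119 (on red blood cells), so the members are cells that a gate against endothelial cells let through. Their number is therefore no measure of the vessels of the gland.

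Endothelial cells line blood and lymph vessels. In capillaries of fat-handling tissues, the membrane protein GPIHBP1 carries lipoprotein lipase (Lpl) to the vessel lumen, where the enzyme frees fatty acids from circulating lipoproteins. CD36 and the fatty acid binding proteins FABP4 and FABP5 take part in the uptake and carriage of these fatty acids. The lactating gland draws on blood lipid for milk fat, and its alveoli are wrapped in capillaries. Arteries, veins and lymphatic vessels have partly separate marker genes, and vessel growth depends on VEGF and its receptors KDR and FLT1.

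Members made up 5.99% of the cells that passed the limits in F11 (exact 95% binomial interval 5.37% to 6.66%) and 13.8% in D6 (13.0% to 14.6%). In the other 8 FVB/NJ libraries the share ran from 0.0372% to 0.423%, and the lactation libraries lay above all of them. Only 5342 of 10877 barcodes of F11 and 6750 of 9878 of D6 passed the limits, and these shares cover counting error only. The immune comparison class held 9 cells in F11 and 215 in D6, and the fibroblast class held 39 and 225. Comparisons with immune cells in F11 thus rest on 9 cells, in which a gene listed at 0 could still lie at up to 169 CPM (UMIs of a gene scaled to a total of 1000000 outside the milk genes), the level that 3 UMIs would give.

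Counts were taken without Csn1s1, Csn1s2a, Csn1s2b, Csn2, Csn3, Wap, Lalba and Glycam1. These 8 milk genes took 34.2% of the UMIs of the members in F11 and 25.6% in D6, against 71.8% and 76.0% in epithelial cells. Fibroblasts of the same libraries held 47.8% and 15.1%, and immune cells 27.3% and 13.2%. Milk RNA was thus present in every class of cell, and shares of cells with a UMI are set beside those of epithelial cells below. Outside the milk genes, members had a median of 1811 UMIs in F11 and 2999 in D6, and a median of 885.5 and 1378.5 genes.

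The label was checked on the 25 genes of the pan-endothelial list. Of these, 21 had a UMI in at least 10% of the members of each library, and 19 were raised, meaning at least 4-fold higher than in immune cells and in fibroblasts in both libraries on the scale of CPM + 10, with a UMI in at least 10% of the members of each library. Of the 19, 15 lay outside the 4 gate genes. Among all genes detected in this way 6.09% were raised. Tie1, Clec14a, Sox18 and Erg missed the 10% limit in F11. The members were selected on the gate genes within this contrast, so the folds over the other classes are a description and carry no test. Gate UMIs ran from 3 to 103 in F11 with a median of 10, and from 3 to 84 in D6 with a median of 12.5. The 22 members of F11 with exactly 3 gate UMIs averaged 3278 CPM of Rbp7, against 6466 CPM in those with 4 or more and 1013 CPM in the 58 cells left out with 2. In D6 the same values were 2187 CPM over 50 cells, 6008 CPM, and 535 CPM over 114 cells. Cells just inside the gate thus held less Rbp7, a gene outside it, than those further in.

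Among 2580 genes with a UMI in at least 10% of the members of each library, 157 were raised (6.09%), 153 of them outside the 4 gate genes. The 157 included the pericyte genes Rgs5, Kcnj8, Abcc9 and Higd1b and the haemoglobin genes Hbb-bs and Hba-a1, and pericytes and red blood cells were not among the classes compared. The median of all 2580 genes was -0.16 on the log2 scale for the smallest of the 4 folds (immune cells and fibroblasts, each in F11 and D6). Ordered by that smallest fold, the 25 leading genes outside the gate were Rbp7, Kdr, Adgrf5, Cldn5, Fabp4, Flt1, 8430408G22Rik, Aqp1, Btnl9, Esam, Egfl7, Tmem252, Mgll, Cavin2, Cd93, Fabp5, Cdh13, Cd300lg, Id1, Timp4, S1pr1, Ushbp1, Gm525, Adgrl4 and Rasip1. The smallest folds ran from 81.2 for Rbp7 to 17.3 for Rasip1. The count depended on the pseudocount added before the fold, and was 55 genes with 50 CPM in place of 10 CPM. It was 259 without F11 and 276 without D6, since fewer folds then had to pass.

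**Figure D1:**
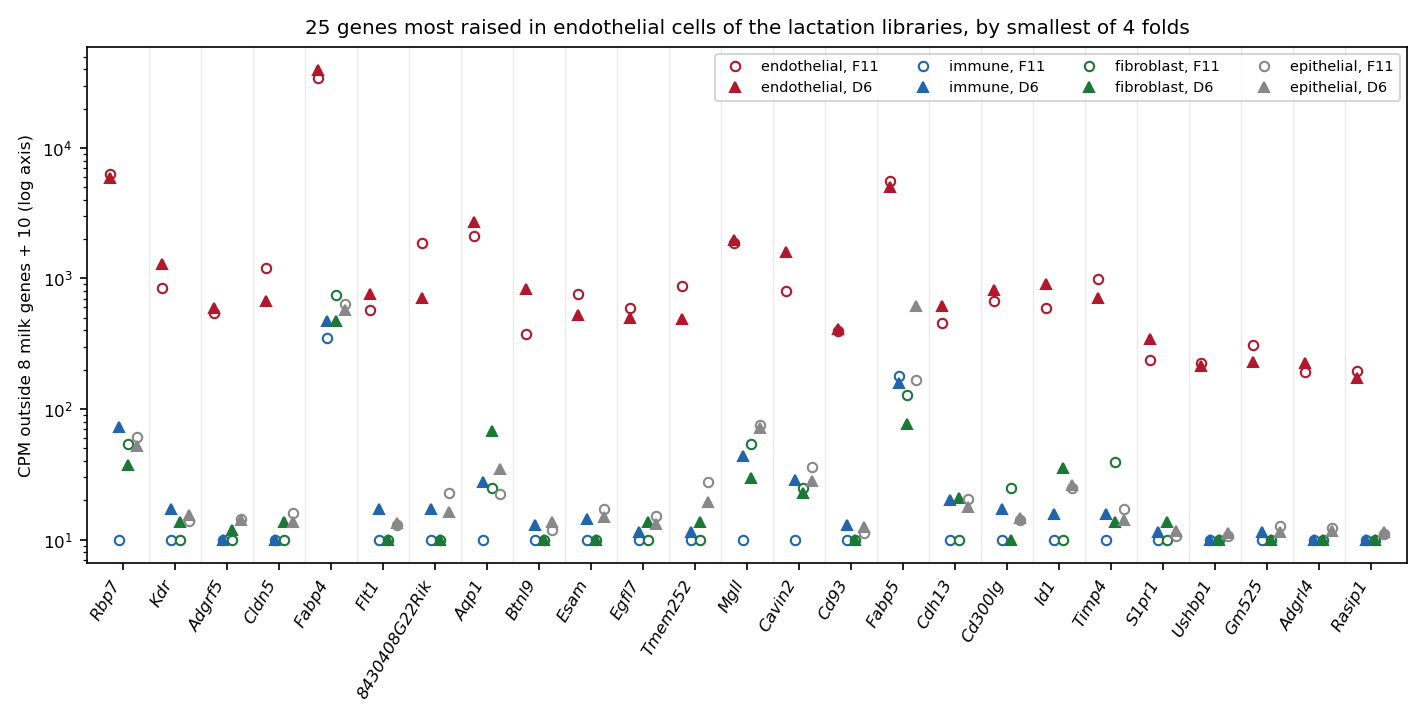
Expression of the 25 genes most raised in endothelial cells outside the gate, in CPM outside the milk genes plus 10 on a log axis. Each symbol is the sum over one class of cells in one library (open circles F11, filled triangles D6); the endothelial symbols lie above those of immune cells, fibroblasts and epithelial cells for each of the 25 genes.

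Rbp7, a binding protein for retinol, stood at 6299 CPM in members of F11 and 5855 CPM in those of D6. Immune cells of D6 held 62.2 CPM, fibroblasts 44.1 and 27.1 CPM, and epithelial cells 51.1 and 41.6 CPM in F11 and D6. The 2 libraries thus gave nearly the same level in members, far above every other class. Timp4, an inhibitor of matrix metalloproteinases, stood at 985 and 703 CPM in members, and measured values in other classes reached 29.4 CPM, with 0 UMIs in the 9 immune cells of F11.

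Many endothelial promoters are bound by ETS transcription factors, whose sites share the core GGAA. Of 22 endothelial transcription factor genes, 13 were detected in 10% of members and 6 were raised, against 6.09% raised among all genes detected. Among ETS genes, Fli1 stood at 161 and 178 CPM in members of F11 and D6, Ets1 at 230 and 337 CPM, and Elk3 at 95.2 and 148 CPM. All 3 were raised, and Erg, another ETS gene, missed the 10% limit in F11. In F11, Fli1 and Elk3 lay below the 169 CPM that 0 UMIs in immune cells allows. Their fold over immune cells there rests on the pseudocount. The promoters of Rbp7, the gene with the largest smallest fold outside the gate, and of Timp4, a raised gene whose difference between lactation and the other stages is described below, are shown from 250 bases before to 50 bases after the start (RefSeq, GRCm38.p6). Rbp7 is at chr4:149454919-149455218 and Timp4 at chr6:115252156-115252455, both on the minus strand. Capitals mark matches of AGGAAG or CGGAAG on either strand.
Rbp7: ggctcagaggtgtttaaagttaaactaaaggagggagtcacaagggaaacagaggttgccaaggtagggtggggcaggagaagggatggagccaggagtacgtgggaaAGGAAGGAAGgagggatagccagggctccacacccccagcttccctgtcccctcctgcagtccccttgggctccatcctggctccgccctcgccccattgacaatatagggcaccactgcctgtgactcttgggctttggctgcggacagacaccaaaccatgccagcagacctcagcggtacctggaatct
Timp4: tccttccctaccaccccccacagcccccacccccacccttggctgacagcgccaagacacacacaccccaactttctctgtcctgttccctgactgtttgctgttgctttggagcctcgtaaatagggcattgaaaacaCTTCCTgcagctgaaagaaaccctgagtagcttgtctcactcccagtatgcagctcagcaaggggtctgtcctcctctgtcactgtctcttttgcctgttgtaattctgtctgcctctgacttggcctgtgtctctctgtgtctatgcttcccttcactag
Rbp7 held 2 overlapping matches and Timp4 held 1 on the opposite strand. The windows of Kdr and Cldn5, also among the leading raised genes, held 0. Promoter windows were found for 109 of the 157 raised genes, and 81 of their 149 windows held such a match (54.4%). This share was 55.8% over the windows of all genes detected in 10% of members and 46.5% over all 32851 windows. ACAAT, the core of SOX sites, was found in 23.5%, 20.6% and 31.0% of these windows in the same order, and the GATA word AGATAA in 6.04%, 5.63% and 11.2%. The raised genes thus held these 3 motifs about as often as other genes detected in the members. A match describes the letters of the window and is no evidence of binding.

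The genes of fatty acid handling were among those most raised in members. Of the 18 genes of the fatty acid uptake list, 11 had a UMI in 10% of members and 8 were raised, against 6.09% raised among all genes detected. The 8 were Gpihbp1, Cd36, Fabp4, Fabp5, Tcf15, Angptl4, Scarb1 and Cd300lg, of which 7 lay outside the gate. Fabp4 stood at 34144 and 39180 CPM in members of F11 and D6, against 735 and 464 CPM in fibroblasts and 623 and 567 CPM in epithelial cells. Fabp5 stood at 5541 and 5019 CPM, with 118 and 66.8 CPM in fibroblasts and 156 and 608 CPM in epithelial cells. Members lay well above the other classes for both genes in both libraries.

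Gpihbp1, the platform for lipoprotein lipase and a gate gene, stood at 5001 and 2917 CPM in members. Cd36, a fatty acid translocase, stood at 3985 and 5032 CPM there and at 1339 and 1974 CPM in epithelial cells. Epithelial cells thus held Cd36 at a substantial level, above the 353 and 90.3 CPM of fibroblasts and the 225 and 221 CPM of immune cells. The enzyme itself was placed differently: Lpl stood at 388 and 470 CPM in members, 1176 and 1587 CPM in fibroblasts, and 1000 and 1922 CPM in epithelial cells. Fibroblasts and epithelial cells thus held more Lpl than members in both libraries. Mgll, which releases fatty acids from monoglycerides, stood at 1872 and 1950 CPM in members and measured values elsewhere reached 65.8 CPM, with 0 UMIs in the 9 immune cells of F11. Pparg, a nuclear receptor that drives several of these genes, stood at 189 and 283 CPM and missed the 4-fold limit with a smallest fold of 3.00, set against the 9 immune cells of F11. The carriers Slc27a1, Slc27a3 and Slc27a4 had a UMI in at most 3.55% of members without thinning, against 2.45% to 10.4% of epithelial cells.

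The VEGF receptors Kdr and Flt1 were raised, and the ligand Vegfa was not. Kdr stood at 833 and 1290 CPM in members and Flt1 at 560 and 747 CPM, and measured values of either gene in other classes reached 7.23 CPM. Both genes had 0 UMIs in immune cells and fibroblasts of F11, where the limits are 169 and 44.1 CPM. Of the 15 genes of the VEGF, angiopoietin and apelin list, 7 were detected in 10% of members, and Kdr and Flt1 were the raised ones. Vegfa, the main ligand of KDR, stood at 11.4 and 25.9 CPM in members and at 22.5 and 131 CPM in epithelial cells. Of the 12 tip and angiogenic genes, which mark sprouting vessels, 5 were detected and none was raised, too few to set against the 6.09% of all genes detected. After thinning each cell to 1000 UMIs outside the milk genes, Esm1 was found in 0.725% of members of F11 and 0.674% of D6, against 0.0366% and 0.0321% of epithelial cells. Apln was found in 0 of 276 members of F11, which allows a share of up to 1.09%, and in 0.112% in D6, against 1.79% and 2.79% of epithelial cells.

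Of 13 junction genes 6 were raised, 4 of them outside the gate. Cldn5, a tight junction protein of endothelium, stood at 1200 and 659 CPM in members and measured values elsewhere reached 5.85 CPM, again with 0 UMIs in immune cells and fibroblasts of F11. Esam, an adhesion molecule of endothelial junctions, stood at 749 and 519 CPM. Of 14 genes of caveolae and transcytosis, 9 were detected, and Cav1, Cav2, Cavin2 and Plvap were raised. Cavin2, a coat protein of caveolae, stood at 789 and 1571 CPM, and Plvap, which forms the diaphragms of fenestrae and caveolae, at 144 and 102 CPM. The F11 value of Plvap lay below the 169 CPM that 0 UMIs in immune cells of F11 allows. Aqp1, a water channel, stood at 2104 and 2716 CPM and measured values in other classes reached 57.8 CPM, with 0 UMIs in the 9 immune cells of F11.

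Several other lists held few or no raised genes, counts that lie near the 6.09% raised among all genes detected. Of 19 MHC and interferon genes, 15 were detected in 10% of members and none was raised: B2m, the light chain of MHC class I, stood at 4014 and 3418 CPM in members, 4054 and 2767 CPM in immune cells, and 2160 and 1648 CPM in fibroblasts. Of 14 basement membrane genes, 10 were detected and 1, Sparcl1, was raised. Of 15 immediate early and heat shock genes, which respond to tissue dissociation, 14 were detected and none was raised. Of 16 hormone and growth factor receptor genes and their partners, 7 were detected and none was raised. The lactation hormone receptor Prlr stood at 28.4 and 20.7 CPM in members against 201 and 182 CPM in epithelial cells.

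The vessel type of the members was described by markers of capillaries, arteries, veins and lymphatic vessels. Of 14 capillary genes, 13 were detected in 10% of members and all 13 were raised, 12 of them outside the gate. Of 14 arterial genes, 6 were detected and 4 were raised (Gja4, Efnb2, Sox17 and Dll4), and of 13 venous genes 5 were detected and 2 were raised (Madcam1 and Lmcd1). Of 8 lymphatic genes none was detected in 10% of members. The share raised among all genes detected was 6.09%. In shares of cells thinned to 1000 UMIs, which kept 276 members of F11 and 890 of D6, the capillary genes Fabp4 and Rbp7 were found in nearly all members. Fabp4 was found in 100% and 98.8% of members, against 44.1% and 37.5% of epithelial cells. Rbp7 was found in 92.4% and 93.4%, against 5.60% and 4.04% of epithelial cells.

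Arterial and venous genes marked smaller sets. Gja4, a gap junction gene of arterial endothelium, was found in 10.5% of members of F11 (exact 95% binomial interval 7.15% to 14.7%) and 8.09% of D6 (6.38% to 10.1%), against 0.329% and 0.128% of epithelial cells. Madcam1, an adhesion molecule for lymphocytes on venules, was found in 14.5% (10.6% to 19.2%) and 8.76% (6.99% to 10.8%), against 0.110% and 0.0963% of epithelial cells. Gja5, an arterial gap junction gene, was found in 1.09% and 0.899% of members, against 0 of 2734 and 0 of 3116 epithelial cells (which allows a share of up to 0.110% and 0.0963%, the share that 3 cells would give). Without thinning, Gja4 was found in 17.8% and 20% and Madcam1 in 23.8% and 18.5%, so the order of the 2 libraries for Gja4 turned with depth. Lrg1, named as venous in the list, was found in 23.2% and 4.27% of members but in 40.7% and 10.6% of epithelial cells, and no venous share was read from it. In F11 it stood at 1005 CPM in members with a Madcam1 UMI, 591 CPM in those with a Gja4 UMI and 426 CPM in those with neither, and in D6 at 86.0, 17.8 and 80.1 CPM in the same order. Lymphatic genes were rare: Prox1, which sets lymphatic identity, was found in 0.362% and 0.337%, with 0.878% and 1.99% in epithelial cells, and Lyve1 in 0.362% and 0.337%, with 0.0366% and 0.0321%.

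Most cell cycle genes were found in few members, and H2afz was the exception. Of the 12 genes of the list, 11 were found in at most 5.39% of thinned members of either library. H2afz, which encodes a histone variant, was found in 38.8% and 40.0% of members, against 32.7% and 32.1% of epithelial cells. At least 2 UMIs of the whole list were held by 31.6% of members of F11 and 48.8% of D6 without thinning. Mki67, a gene of cycling cells, was found in 0 of 276 members of F11, which allows a share of up to 1.09%, and in 0.787% in D6, against 4.25% of immune cells of D6 and 0.768% and 1.25% of epithelial cells of F11 and D6. Top2a was found in 0.725% and 1.01% of members, against 6.60% of immune cells of D6 and 0.475% and 0.193% of epithelial cells. Of the list, 1 gene was detected in 10% of members, and it was not raised.

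**Figure D2:**
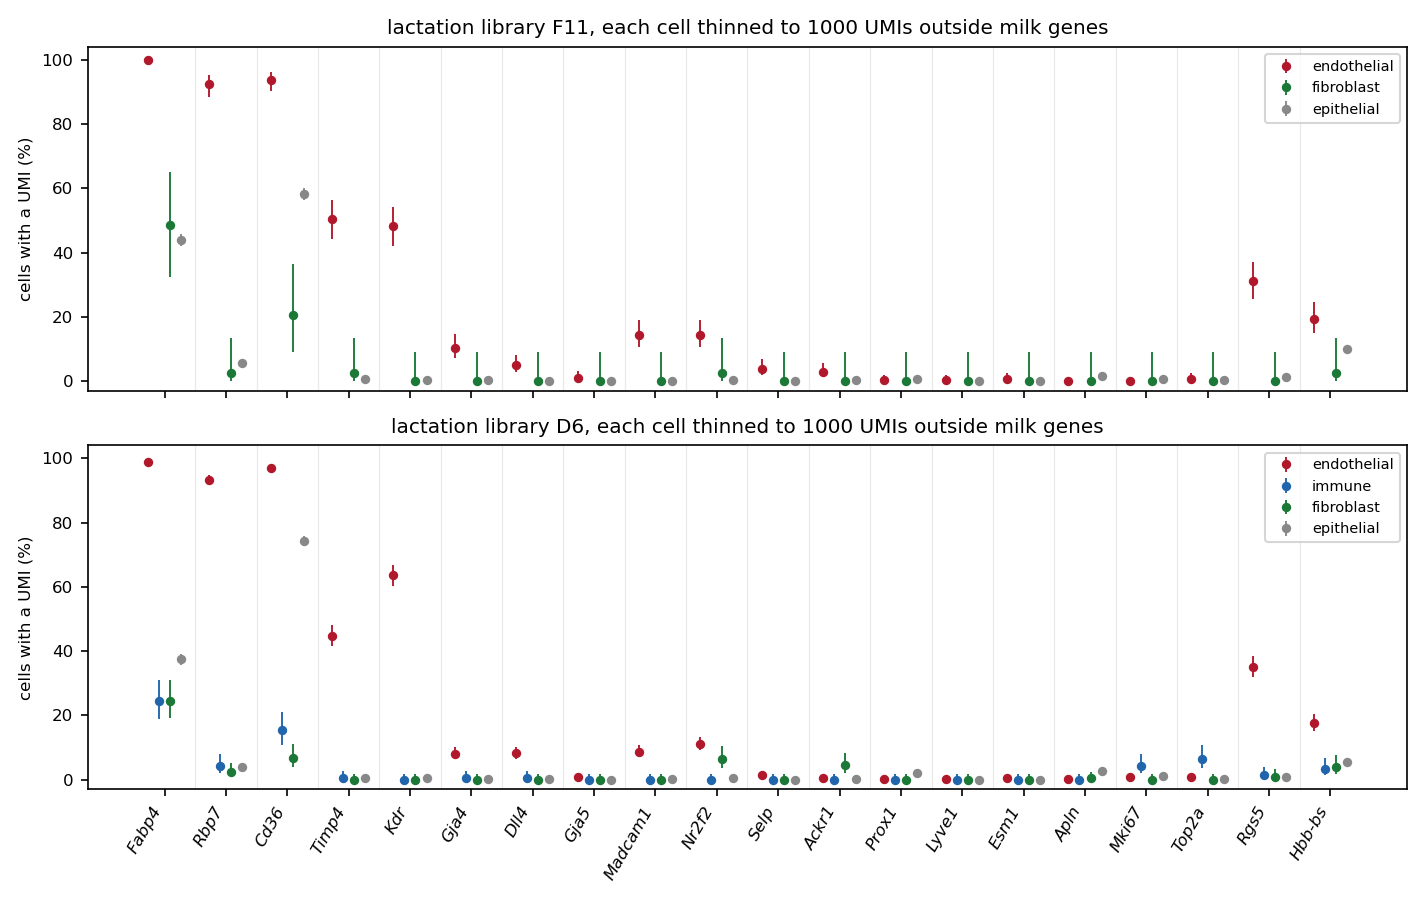
Share of cells with at least 1 UMI of each gene after thinning every cell to 1000 UMIs outside the milk genes, in percent, with exact 95% binomial intervals. Colours give the class of cell and the panels give the library; the 9 immune cells of F11 are not drawn. Fabp4, Rbp7 and Cd36 are found in most endothelial cells, Gja4 and Madcam1 mark about 1 cell in 10, and the lymphatic, sprouting and cell cycle genes drawn stay near 0.

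Members with a Gja4 UMI (57 in F11 and 186 in D6) were set beside those with a Madcam1 UMI (76 and 172), a split chosen after values had been seen. Cells with both UMIs numbered 8 and 29, and they were deeper, with a median of 4254 and 6039 UMIs outside the milk genes. Cells with a Gja4 UMI held more of some other arterial genes, each given next for F11 and then D6. Stmn2 stood at 275 and 157 CPM against 0 and 2.53 CPM in cells with a Madcam1 UMI, and Fbln5, an elastic fibre protein, at 203 and 185 CPM against 18.4 and 24.0 CPM. Edn1, which encodes the vasoconstrictor endothelin, stood at 113 and 81.9 CPM against 9.22 and 19.0 CPM. Sox17, also in the arterial list, differed less in F11, where Madcam1 cells held 309 CPM and Gja4 cells 346 CPM. The pericyte gene Rgs5 was also highest there, at 1558 and 1242 CPM, against 761 and 666 CPM in Madcam1 cells and 515 and 709 CPM in cells with neither, and its part in the split was not tested. Fabp5 had the opposite order, at 3252 and 4082 CPM in Gja4 cells and 7139 and 6595 CPM in Madcam1 cells. Venous genes divided on this split. Nr2f2, a transcription factor of venous endothelium, stood at 314 CPM in Madcam1 cells of F11 against 221 CPM in Gja4 cells and 125 CPM in cells with neither UMI, and at 152 against 128 and 113 CPM in D6. Lrg1, above, was also highest in Madcam1 cells of F11. In D6 its value in Madcam1 cells lay close to that of cells with neither UMI. Selp, an adhesion molecule of venules, stood at 152 CPM in Madcam1 cells of F11 against 49.8 CPM in cells with neither UMI, and at 0 against 24.0 CPM in D6. Ackr1, a chemokine receptor of venules, stood at 161 against 41.5 CPM in F11 and at 1.26 against 19.8 CPM in D6. Fatty acid genes were present on both sides: Gpihbp1 stood at 4333 and 3031 CPM in Gja4 cells and 5313 and 3332 CPM in Madcam1 cells. These are descriptions of split cells with no test, and cells shared by both sides were kept in both.

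**Figure D3:**
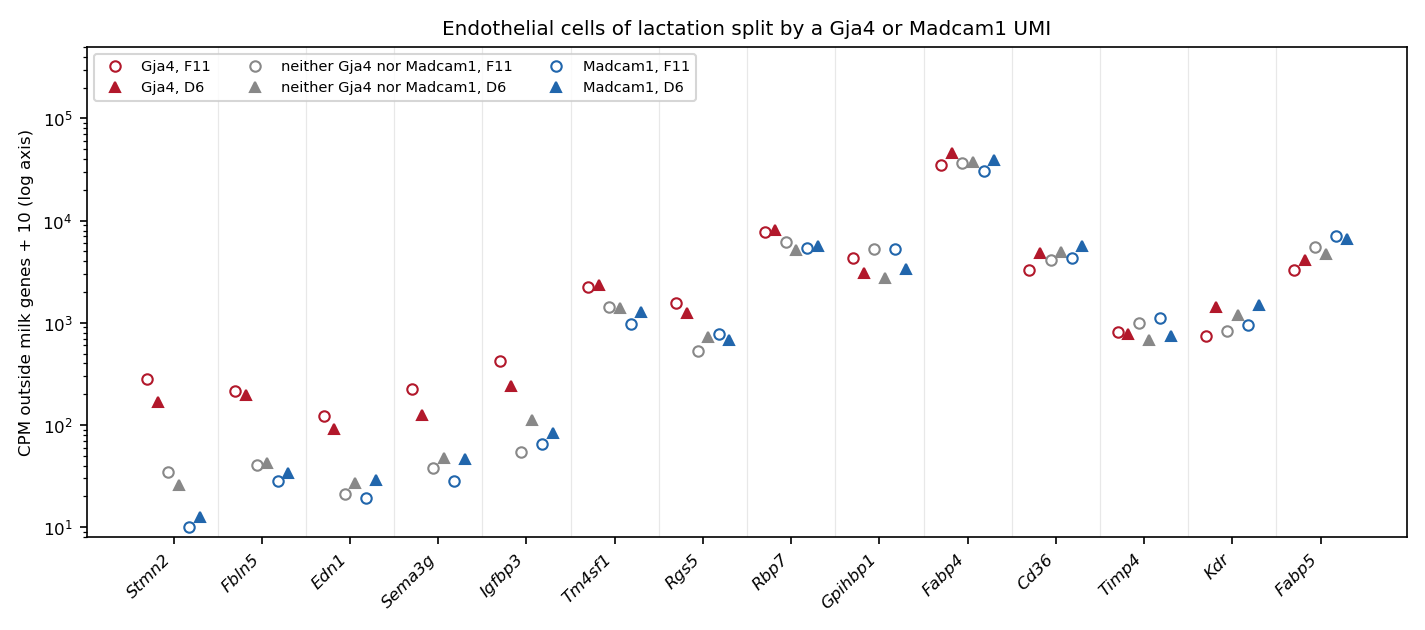
Expression in endothelial cells of lactation with a Gja4 UMI, with a Madcam1 UMI, or with neither, in CPM outside the milk genes plus 10 on a log axis (open circles F11, filled triangles D6). The arterial genes drawn on the left are higher in Gja4 cells in both libraries. Gpihbp1, Fabp4, Cd36, Timp4 and Kdr lie close together in the 3 sets.

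The 2 lactation libraries differed for some genes, and these genes were picked after their values were seen. Sox18, an endothelial transcription factor, stood at 28.4 CPM in members of F11 and 214 CPM in D6, and 8430408G22Rik at 1868 and 702 CPM. Klf2, which responds to blood flow, stood at 1825 and 385 CPM in members, 3350 and 576 CPM in fibroblasts, and 633 and 139 CPM in epithelial cells. F11 thus held more Klf2 in all 3 classes. With 1 library of each, no test of these differences was possible.

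Markers of other cell types were measured in the members before lactation was compared with the other stages. The pericyte and smooth muscle list summed to 3463 and 3128 CPM in F11 and D6, with all 10 genes present, against 1654 to 5087 CPM in the members of A10, post-involution and B4. Rgs5, a pericyte gene, was found in 31.2% and 35.2% of thinned members and in 1.32% and 0.899% of epithelial cells. At least 3 UMIs of that list were held by 38.8% of members in F11 and 45.3% in D6, against 28.4% and 9.47% of epithelial cells, in which the list summed to 3268 and 950 CPM. The blood list of haemoglobin and platelet genes summed to 28169 and 22240 CPM, against 0 to 129 CPM in the comparison libraries. Hbb-bs was found in 19.6% and 17.8% of thinned members, against 10.1% and 5.55% of epithelial cells. The epithelial list summed to 877 and 693 CPM, against 1272 to 4878 CPM in the comparison libraries, where A10 was highest. The immune list summed to 405 and 322 CPM against 51.5 to 71.9 CPM, and Ptprc was at 0 by the rule. The fibroblast list summed to 155 and 162 CPM against 77.2 to 446 CPM, and the adipocyte list to 118 and 232 CPM against 53.7 to 216 CPM. Secretory transcripts outside the 8 milk genes summed to 22076 and 15770 CPM, against 2259 to 13218 CPM.

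**Figure D4:**
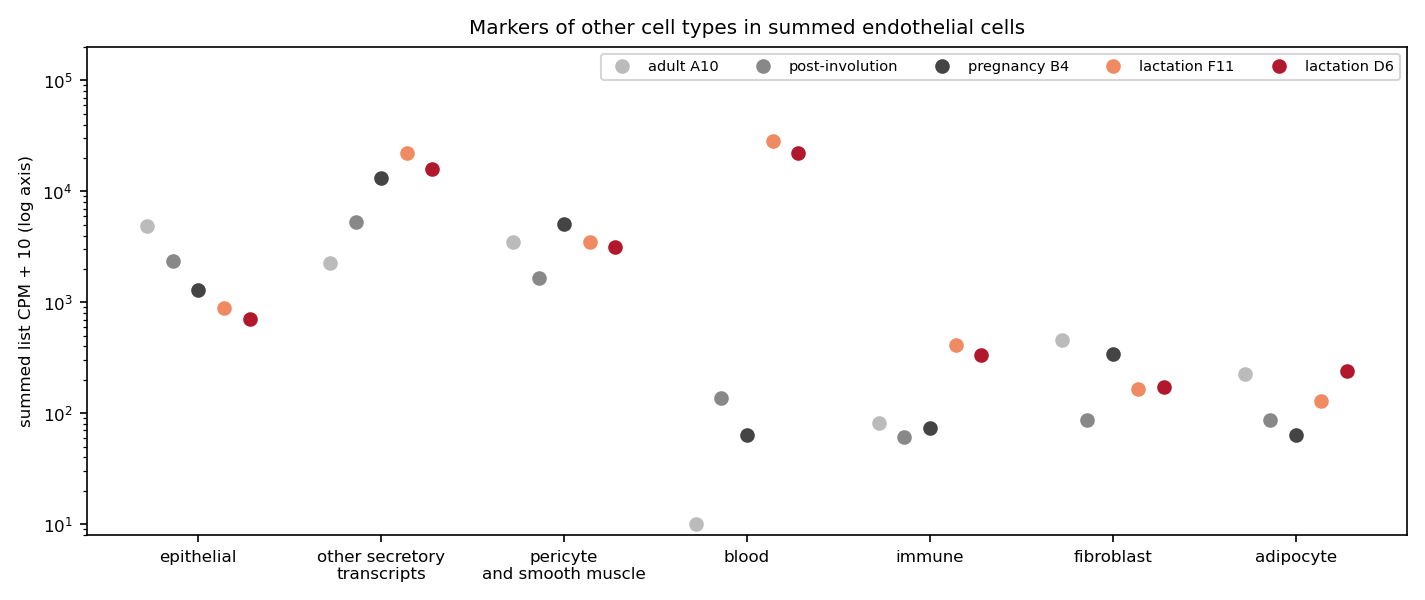
Summed CPM plus 10, on a log axis, of marker lists of other cell types in the endothelial cells of 5 FVB/NJ libraries. Each point is 1 library; blood, immune and secretory genes are higher in both lactation libraries, and epithelial genes are higher in all 3 comparison libraries.

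Lactation was compared with the other stages over libraries, with the members summed per library. The comparison set F11 and D6 against A10 with 38 endothelial cells, post-involution with 41 and B4 with 21, the FVB/NJ libraries with at least 20 such cells. With edgeR's quasi-likelihood test and Benjamini-Hochberg adjustment, 53 of 3089 genes tested were higher in lactation (1.72%) and 60 were lower (1.94%) at an adjusted p under 0.05. The 53 include the gate gene Gpihbp1, and without the genes of the rule 52 of 3084 were higher (1.69%). Among the 53 higher genes, 29 had their largest CPM in endothelial cells of the lactation libraries, 15 in epithelial cells, 9 in immune cells and 0 in fibroblasts. The 29 include the gate gene Gpihbp1 and the haemoglobin genes Hba-a1, Hba-a2, Hbb-bs and Hbb-bt. Red blood cells were not among the classes compared. Among the 60 lower genes, 40 were higher in epithelial than in endothelial cells of the comparison libraries. The moves of blood, immune, secretory and epithelial markers above run the same way as these calls, and their part in the result was not tested. Ribosomal protein genes took 13.1% of the UMIs of members outside the milk genes in F11 and 13.9% in D6, against 26.5% in A10, 23.1% after involution and 18.5% in B4, and 78 of 80 tested had a fitted difference below 0 (median -0.75 on the log2 scale). Rps28, Rpl39 and Rps2 were called lower, as were the mitochondrial genes mt-Nd2 and mt-Nd3, and the part of RNA quality or library differences in the calls was not tested either. The calls also rested on few libraries: 40 genes were called without F11, 52 without D6, 113 without A10, 85 without post-involution and 329 without B4. A limit of 10 cells per library added the adult library P7 with 14 members and F4 of pregnancy day 18.5 with 15. With these libraries 27 genes were called, 22 higher and 5 lower. P7 had barcodes of 14 bases, against 16 in the other FVB/NJ libraries. Its members had a median of 0.531% mitochondrial UMIs, against 3.54% in those of A10. The part of such differences between libraries in the lower count was not tested. Without members holding 3 UMIs of the epithelial list, 20 genes were called. This exclusion left 23 cells in A10, 28 after involution and 10 in B4, so that B4 dropped below 20 cells and out of the fit.

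Timp4 was higher in lactation. It stood at 985 CPM in F11 and 703 CPM in D6, against 64.8 CPM in A10, 129 CPM after involution and 59.0 CPM in B4. Both lactation libraries lay far above all 3 others. The fitted difference was 3.34 ± 0.44 on the log2 scale (SE), 10.1-fold (edgeR, adjusted p = 3.9e-04), and it was called in all 21 alternatives run, with adjusted p from 9.7e-14 to 0.031. The highest of these came without cells holding epithelial UMIs. The promoter of Timp4 is the second sequence printed above.

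Of the 153 raised genes outside the gate, 150 were tested, and 20 were higher in lactation and 0 lower, against 1.72% higher among all genes tested. Their median difference was 0.77 on the log2 scale, against 0.0061 for all genes tested. These genes were chosen for their level in the lactation libraries, which the comparison uses again, so their direction is not independent evidence. Beside Timp4 they were Hbb-bs, Hba-a1, Gm11730, Chp2, Gm525, Tnfsf10, Upp1, Trim37, Gpr160, Stc1, Gm12002, Vamp5, Aqp1, Fabp5, Hrct1, Kdr, Bok, Cd36 and Ptprb. The epithelial exclusion ended most of these calls: all 20 were tested, and 3 passed, namely Timp4, Hbb-bs and Hba-a1. That fit had fewer cells and no B4. With libraries of at least 10 cells, 6 of the 20 passed. Without F11 6 of the 20 passed, without D6 9, without A10 8, without post-involution 8 and without B4 20, so leaving out B4 alone ended none of these calls. The direction of these 20 genes was the same in every alternative run. A gate of 5 UMIs kept 18 of 38 members in A10, 30 of 41 after involution and 19 of 21 in B4, against 279 of 320 in F11 and 827 of 930 in D6. A10 and post-involution thus held a larger share of members near the gate, where Rbp7 was lower in F11 and D6. The part of this in the calls was not tested.

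Of the fatty acid carriers, Cd36 and Fabp5 passed the test as higher in lactation. Cd36 stood at 3985 CPM in F11 and 5032 CPM in D6, against 950 CPM in A10, 1712 CPM after involution and 2088 CPM in B4. Fabp5 stood at 5541 and 5019 CPM, against 734, 1422 and 2850 CPM in the same order. For both genes the 2 lactation libraries lay above all 3 others. The difference of Cd36 was 1.52 ± 0.37 (log2, SE; edgeR, adjusted p = 0.029, called in 11 of 21 alternatives), and that of Fabp5 was 1.70 ± 0.43 (adjusted p = 0.039, 12 of 21). Without members holding epithelial UMIs neither passed (edgeR, adjusted p = 0.26 for Cd36 and 0.11 for Fabp5), while both passed without B4 alone (adjusted p = 0.0020 and 8.6e-05). In the fatty acid uptake list 12 genes outside the gate were tested, these 2 passed and none was lower, against 1.72% higher among all genes tested. The median was 0.92, against 0.0061 for all genes tested. It was 0.77 for the raised genes outside the gate and 1.09 for the capillary list, so the shift was not particular to this list.

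Other genes of the list had the same order of libraries without passing the test. Fabp4 stood at 34144 and 39180 CPM in lactation, against 12677 CPM in A10, 18164 CPM after involution and 17801 CPM in B4, without overlap (log2 1.18 ± 0.32 SE, edgeR adjusted p = 0.056). Mgll stood at 1872 and 1950 CPM, against 489, 747 and 1148 CPM (log2 1.29 ± 0.38 SE, adjusted p = 0.069). Rbp7 stood at 6299 and 5855 CPM, against 1676, 1583 and 3714 CPM (log2 1.42 ± 0.38 SE, adjusted p = 0.051). Gpihbp1, whose UMIs chose the cells, stood at 5001 and 2917 CPM, against 698, 1036 and 1503 CPM, and is given without a test. B4, from late pregnancy, was the highest of the 3 comparison libraries for Cd36, Fabp5, Mgll, Rbp7 and Gpihbp1. Its members were deeper, with a median of 7469 UMIs outside the milk genes, against 2102.5 in A10 and 2108 after involution. At least 3 epithelial UMIs were held by 52.4% of them, against 39.5% and 31.7%. Epithelial cells of B4 held 512 CPM of Cd36, against 0.73 CPM in A10 and 7.95 CPM after involution. The part of depth or of other cells' RNA in this order was not tested. Lying beyond all other libraries was itself common, with 17.7% of the genes tested above in both lactation libraries and 16.6% below.

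Aqp1 stood at 2104 and 2716 CPM in F11 and D6, against 288 CPM in A10, 676 CPM after involution and 1122 CPM in B4 (log2 1.82 ± 0.44 SE, edgeR adjusted p = 0.029, 13 of 21 alternatives). Kdr stood at 833 and 1290 CPM, against 302, 380 and 349 CPM (log2 1.62 ± 0.37 SE, adjusted p = 0.022, 11 of 21 alternatives). Lactation libraries did not overlap the others for either gene. The difference of Kdr was 0.77 without members holding 3 epithelial UMIs (edgeR, adjusted p = 0.62), 0.94 without those holding 3 pericyte and smooth muscle UMIs (adjusted p = 0.26) and 0.51 without either or those holding 3 blood UMIs (adjusted p = 0.73). B4 fell out of these 3 fits, and leaving out B4 alone gave 1.60 (adjusted p = 0.010). The second VEGF receptor, Flt1, stood at 560 and 747 CPM, against 381, 496 and 231 CPM, and did not pass (log2 0.81 ± 0.40 SE, adjusted p = 0.31). Ptprb, a phosphatase of endothelial junctions, stood at 370 and 532 CPM against 158, 174 and 182 CPM (log2 1.39 ± 0.36 SE, adjusted p = 0.040, 7 of 21 alternatives). It was 0.58 without members holding epithelial UMIs (adjusted p = 0.79) and 0.88 without those holding pericyte and smooth muscle UMIs (adjusted p = 0.32).

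**Figure D5:**
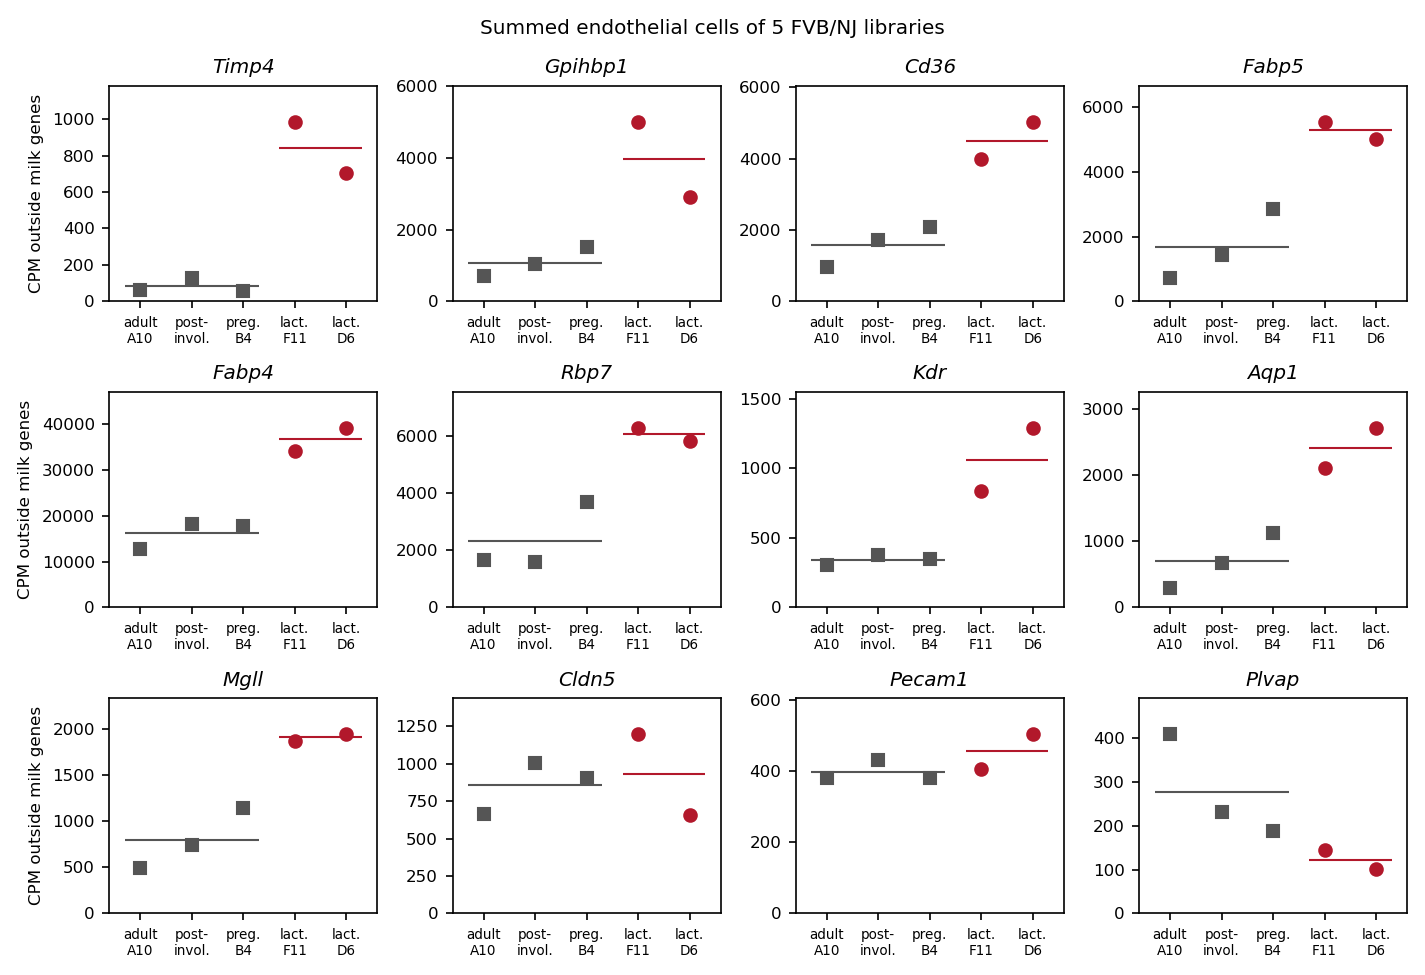
Endothelial expression of 12 genes in 5 FVB/NJ libraries, in CPM outside the milk genes on linear axes that start at 0. Squares are the adult, post-involution and pregnancy libraries and circles the lactation libraries, with lines at the group means; Timp4, Gpihbp1, Cd36, Fabp5, Fabp4, Rbp7, Kdr, Aqp1 and Mgll are higher in both lactation libraries, Cldn5 and Pecam1 overlap, and Plvap is lower.

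Most general endothelial genes did not pass the test. Of 18 genes of the pan-endothelial list tested outside the gate, Kdr and Ptprb passed as higher and none as lower, with a median of 0.55. Cldn5 stood at 1200 and 659 CPM in F11 and D6, against 662, 1004 and 907 CPM in A10, post-involution and B4, and the groups overlapped (log2 0.14 ± 0.39 SE, edgeR adjusted p = 0.89). Plvap stood at 144 and 102 CPM, against 410, 232 and 188 CPM, below all others without passing the test (log2 -1.18 ± 0.42 SE, adjusted p = 0.15). Of 13 capillary genes tested outside the gate, Timp4, Kdr and Cd36 were higher and none was lower, with a median of 1.09. None of the 9 arterial, 8 venous, 4 tip and angiogenic or 2 cell cycle genes tested passed. Among all 3089 genes tested 1.72% were higher and 1.94% lower, with a median of 0.0061, and 0 calls in lists this short lies near that share.

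Some genes of other groups were called. Calcrl, a receptor for adrenomedullin, stood at 93.8 and 100 CPM in lactation, against 28.8, 45.1 and 21.5 CPM (log2 1.63 ± 0.44 SE, edgeR adjusted p = 0.049, 3 of 21 alternatives). Hes1, a target of Notch signalling, stood at 269 and 264 CPM against 633, 869 and 703 CPM (log2 -1.46 ± 0.38 SE, adjusted p = 0.043, 11 of 21 alternatives). Of the hormone and growth factor receptor list, 11 were tested and Igfbp5, Fgfr1 and Prlr were lower, against 1.94% lower among all genes tested. In the lactation libraries, Igfbp5 and Fgfr1 had their largest CPM in fibroblasts and Prlr in epithelial cells. Prlr stood at 28.4 and 20.7 CPM against 640 CPM in A10, 341 CPM after involution and 16.1 CPM in B4, so B4 lay below lactation. Fgfr1, a receptor for fibroblast growth factors, stood at 12.8 and 29.5 CPM against 115, 109 and 91.2 CPM. Krt8 and Krt18, keratins of luminal epithelium, were lower too, with 9 genes of the epithelial list tested and a median of -1.93. Slco2a1, a prostaglandin transporter, was lower and was the only lower gene of 9 tested in the transport list.

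Among called genes whose lactation libraries both lay above all 3 others, the 10 largest rises were Hbb-bt, Hba-a2, Ccl4, Hbb-bs, H2-Ab1, Hba-a1, Ccl3, C1qa, C1qc and Wfdc17. Hbb-bs, a haemoglobin chain of red blood cells, stood at 15753 and 12462 CPM in F11 and D6, against 0 CPM in A10 and B4 and 32.2 CPM after involution. Hbb-bt, Hba-a2, Ccl4, H2-Ab1, Ccl3, C1qa and C1qc had 0 UMIs in all 3 comparison libraries, where a count of 0 allows 6.24 CPM over the group. Over that limit they were at least 207-fold, 47.5-fold, 32.5-fold, 22.5-fold, 14.3-fold, 11.5-fold and 10.0-fold higher in lactation. Ccl4, a chemokine of immune cells, stood at 162 and 211 CPM in members but at 7269 CPM in immune cells of D6. H2-Ab1, of MHC class II, stood at 136 and 141 CPM in members and at 9352 CPM in those immune cells, and at 52.7 and 38.4 CPM in epithelial cells. Wfdc17 stood at 500 and 364 CPM in members, against 4449 and 3912 CPM in epithelial cells. These rises were therefore of genes that other cells of the same libraries held at much higher levels, apart from the haemoglobins.

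Among called genes whose lactation libraries both lay below all 3 others, the 10 largest falls were Stc2, Pdpn, 1500015O10Rik, Fst, Id4, Crispld2, Cebpb, Col16a1, Tmem158 and Samd5. Outside that limit Crym and Cxcl15, held most by epithelial cells of the lactation libraries, had larger fitted falls. Cebpb, a transcription factor, stood at 42.6 and 86.3 CPM in lactation, against 892 CPM in A10, 1242 CPM after involution and 225 CPM in B4 (log2 -3.62 ± 0.64 SE, edgeR adjusted p = 0.0045). It was also low in fibroblasts of lactation, at 103 and 99.3 CPM, against 1346 and 1562 CPM in those of A10 and post-involution. Epithelial cells of A10, post-involution and B4 held 1401, 1275 and 258 CPM of it, also lowest in B4, and the part of epithelial RNA in the members' values was not tested. Id4, a regulator that blocks other transcription factors, stood at 5.69 and 6.01 CPM, against 151, 90.1 and 59.0 CPM (log2 -4.05 ± 0.61 SE, adjusted p = 0.0011). Pdpn, a membrane glycoprotein of lymphatic vessels and of fibroblasts, stood at 2.84 and 2.10 CPM, against 64.8, 64.4 and 53.7 CPM (log2 -4.66 ± 0.93 SE, adjusted p = 0.0096). Lactation libraries lay below all others for these 3 genes. The Pdpn values of A10, post-involution and B4 rest on 9, 10 and 10 UMIs. Epithelial cells of these libraries held 43.23, 17.35 and 56.97 CPM of Pdpn and 95.9, 48.6 and 84.2 CPM of Id4. The part of epithelial RNA in the members' values of Pdpn and Id4 was not tested either. The lymphatic chemokine gene Ccl21a stood at 1879 CPM in post-involution members, at 82.4 and 89.3 CPM in F11 and D6, and at 0 CPM in A10 and B4. Lyve1 stood at 180 CPM and Mmrn1 at 116 CPM after involution, against at most 5.69 and 8.53 CPM in lactation.

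Whether the lactation effect differed between endothelial cells and fibroblasts was tested in 1 edgeR fit over both classes in A10, post-involution, F11 and D6, with the library as a block. Of 7051 genes tested, 118 differed at an adjusted p under 0.05 (1.67%), 45 of them with the larger effect in endothelial cells and 73 with the smaller. Mgll had an effect larger in endothelial cells by 3.61 ± 0.56 (log2, SE; edgeR, adjusted p = 7.3e-08), and it was called in all 7 alternatives. Fibroblast Mgll stood at 100 and 89.2 CPM in A10 and post-involution and at 44.1 and 19.9 CPM in F11 and D6, with the lactation libraries at the lower values. The 44.1 CPM of F11 is the level that 3 UMIs give. Fabp5 (1.76 ± 0.47, adjusted p = 0.014) and Cavin2 (2.52 ± 0.68, adjusted p = 0.018) also had the larger effect in endothelial cells, each in 2 of 7 alternatives.

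For Fabp4 and Cd36 the difference ran the other way. Fibroblast Fabp4 stood at 55.7 and 69.2 CPM in A10 and post-involution and at 735 and 464 CPM in lactation, and the endothelial minus the fibroblast effect was -1.87 ± 0.35 on the log2 scale (SE; edgeR, adjusted p = 2.0e-05, 4 of 7 alternatives). Fibroblast Cd36 went from 3.18 and 11.2 CPM to 353 and 90.3 CPM, with a difference of -2.75 ± 0.58 on the same scale (edgeR, adjusted p = 3.6e-04, 2 of 7 alternatives). The level of both genes in fibroblasts of lactation stayed far below that of members. Immune cells of the same libraries held 338 and 466 CPM of Fabp4 and 225 and 221 CPM of Cd36. Epithelial cells of these libraries held both genes too, at the levels given above. The part of RNA from other cells in the fibroblast values was not tested. Counts of calls depended on the libraries: 21 genes differed without A10, 47 without post-involution, 61 without D6 and 106 without F11, and DESeq2 called 44. Each fit that left out 1 library, also where counted among the 7 alternatives, set an arm of 1 library, which is assumed to vary like the other group. The same comparison with immune cells could not be fitted, since 1 library held 20 or more immune cells.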

How the data were processed

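Sorted mammary cells were profiled by 10x Genomics 3' single-cell RNA sequencing. The authors deposited raw UMI counts per gene and cell, made with Cell Ranger 3.1.0 on mm10 per the submitters' processing notes, which also name edgeR, for barcodes with at least 500 counts. The series held 18 libraries, and 0 columns of per-sample values were left unused. F11 and D6 shared 134 barcodes.

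Cells were kept at 500 genes and under 20% mitochondrial UMIs, and the rule was applied to every library. The immune class needed Ptprc and 3 UMIs of Ptprc, Cd52, Laptm5 and Coro1a; fibroblasts needed 10 UMIs of Col1a1 and Col3a1; epithelial cells needed 3 UMIs of Epcam, Krt8, Krt18, Krt5 and Krt14 and no gate UMI, which fixes the gate genes at 0 there. No doublet caller was run. In the main values doublets were addressed by the rule only. Members with 3 UMIs of the epithelial, pericyte and smooth muscle or blood lists were left out in alternatives only. No alternative left out members with 3 UMIs of the immune list, which 8.75% held in F11 and 10.8% in D6. The members and gene lists were chosen with earlier results of these data known.

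Counts outside the 8 milk genes were summed per library and class. CPM scales a count to 1000000 of those UMIs. Three-prime UMI counts are not divided by gene length, so levels were compared within a gene. Folds between classes used a pseudocount of 10 CPM and no test. Stages were tested with edgeR 4.0.16 (R 4.3.3; TMM, filterByExpr, quasi-likelihood), with DESeq2 1.42.0 as an alternative. Groups were 2 lactation libraries and 3 others, which makes the other stages' differences part of the error. Per the study's methods, FVB/N adult and post-involution samples were processed together, without naming which adult library; lactation is not named among them, so processing and stage cannot be told apart. Each is a pool of mice, and no source ties cells to animals, so p-values measure the spread between pools. Genes named were the gate and marker genes, the 25 largest smallest folds, the 10 largest rises and falls among called genes lying beyond all others, and list members. The plan of 1 fit over 3 classes was reduced to endothelial cells and fibroblasts, since immune cells reached 20 in D6 only. Thinning used Python 3.11.15 and numpy 2.4.6. The tests were checked on simulated data. Intervals and floors cover counting error only. A result on 1 gene is not reported here.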

Additional observations from a re-analysis of the deposited data

Results flagged for a closer look

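The groups of the stage comparison held 2 and 3 libraries, too few for a test of single libraries that stand apart. The lactation effect differed between endothelial cells and fibroblasts for 118 genes by the interaction test in edgeR. Differences below are the endothelial minus the fibroblast effect of lactation on the log2 scale, for the genes named by the rule or in the fatty acid and capillary lists.

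Mgll differed by 3.61, Cavin2 by 2.52 and Fabp5 by 1.76, with the larger effect in endothelial cells. Fabp4 differed by -1.87, Cd36 by -2.75 and Rgcc by -2.56. Rgcc, which is named for a role in the cell cycle, stood at 1265 and 1063 CPM in members of F11 and D6 and at 648 and 721 CPM in those of A10 and post-involution.

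Stc2 differed by -8.10, Pdpn by -5.12, Fst by -2.99, Crispld2 by -5.17 and Col16a1 by -3.92. Stc2, a secreted glycoprotein, stood at 288 and 109 CPM in members of A10 and post-involution and at 8.53 and 3.91 CPM in F11 and D6. Fibroblasts held 27.1 and 42.4 CPM in the first pair and 382 and 213 CPM in the second. Epithelial cells of A10 and post-involution held 488 and 161 CPM of Stc2 and 360 and 72.9 CPM of Crispld2. Members of those libraries also held more of the epithelial list than those of F11 and D6. None of the alternatives counted next left out members with epithelial UMIs. The part of epithelial RNA in these differences was not tested. The calls of Mgll, Stc2 and Crispld2 held in all 7 alternatives, and those of the other 8 genes were lost in 1 to 5 of them, without a change of sign.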

How the results depend on the processing

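The number of genes called between lactation and other stages was 113. It was 383 without a filter on low counts (16113 genes tested), 285 against the adult library alone, 297 with each stage as its own group, 27 with libraries of at least 10 cells, 205 with an upper bound per library on genes and UMIs, 20 without members holding 3 epithelial UMIs, and 59 without members holding 3 epithelial, pericyte or blood UMIs, an alternative chosen after seeing the data. In the last 3 of these settings B4 fell below 20 cells and out of the fit. Leaving out 1 library gave 40 to 329 calls. DESeq2 called 156, library totals without TMM 85 and a gate of 5 UMIs 86, of which 98, 83 and 47 were shared with the 113. The gate of 5 UMIs left 18 cells in A10 and 19 in B4, so its comparison was with post-involution alone. That gate, the adult or pregnancy library alone, and leaving out F11 or D6 each set an arm of 1 library, which is assumed to vary like the other group. Library totals without TMM called 33 higher and 52 lower genes, DESeq2 59 and 97. For 38 genes named by rule or raised, 562 of 751 values under alternatives kept the call, 189 lost it and 0 changed sign. The median difference over all genes tested was 0.0061 on the log2 scale, and 0.33 without the filter, 0.11 against the adult library and 0.10 with a gate of 5 UMIs. The cause of these changes was not tested.

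The difference between endothelial cells and fibroblasts was called for 118 genes, for 44 by DESeq2 and 60 without a filter, and for 21 to 106 when 1 library was left out. The count of raised genes was 157, 55 with a pseudocount of 50 CPM, and 259 to 276 from 1 library alone. It was 142 without pericyte-marked members, 149 without blood-marked ones and 151 without any of the 3 marks. The number of members was 1106 to 1422 over the gates and 1238 to 1257 over the mitochondrial limits tried. Thinning to 500 UMIs moved the median share over the pan-endothelial list from 21.4% to 12.5% in F11 and from 27.0% to 15.8% in D6. No paired analysis was possible because the labels give the lactation and other libraries no shared replicate numbers. The interaction with immune cells gave no value.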
